A study of Mus musculus with 10 samples.

Results

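NIC-Prmt1 was compared with NIC-Prmt6 by RNA sequencing of mammary epithelial cells from FVB mice. The comparison took in 5 of the series' 10 libraries, chosen by their labelled genotype: 3 of NIC-Prmt1 and 2 of NIC-Prmt6. It was described across the 15694 of 16290 deposited genes that had a normalised read count of at least 10 in at least 2 libraries. Both genotypes carry NIC, which the other 5 libraries (2 of NIC and 3 of NIC-Carm1) carry as well, and each adds overexpression of a protein arginine methyltransferase (PRMT). The labels do not spell out NIC; it is the usual name of a mouse line in which a mammary tumour virus promoter drives an activated Neu (ErbB2) receptor together with Cre recombinase. They give neither the promoter behind the PRMT transgenes nor the age of the mice, and do not say whether each library came from a separate animal. The p-values below measure the spread between these libraries, part of which may be technical.

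PRMT1 and PRMT6 are type I arginine methyltransferases: both add methyl groups to arginine side chains and leave asymmetric dimethylarginine. PRMT1 is the main enzyme of this kind in mammalian cells and places an activating mark on histone H4. PRMT6 acts mostly in the nucleus and methylates an arginine of histone H3 next to the lysine whose methylation marks active promoters, which it counteracts. The mammary gland is built of an inner luminal epithelium that makes milk and an outer contractile myoepithelium, set in a stroma of fibroblasts, fat cells, vessels, nerves and immune cells. Cells were freed by enzymes and enriched by short spins, so that stromal RNA can remain. Keratin genes of the luminal epithelium were among the abundant transcripts. Krt8 had 45138, 57717 and 69627 normalised reads in NIC-Prmt1, against 46058 and 46545 in NIC-Prmt6, and the adhesion gene Epcam had 17215, 24259.5 and 25941 in NIC-Prmt1, against 18112 and 17836 in NIC-Prmt6.

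The recovered reads ran between 23795611 and 25333675 in the NIC-Prmt1 libraries and were 28568121 and 30260921 in the NIC-Prmt6 libraries. The 2 NIC-Prmt6 libraries were nearly identical: the chi-square of their reads over its degrees of freedom was 2.44, where pairs of NIC-Prmt1 libraries gave 27.99 to 58.1. At least 2-fold apart were 328 genes between the NIC-Prmt6 libraries and 971 to 1549 genes between NIC-Prmt1 libraries. Even the NIC-Prmt6 pair differed beyond sampling noise, which does not show that its libraries are independent replicates. The main fit did not merge the pair and counts it as 2 separate libraries. Counts are also given with the pair averaged to 1 library, whose spread is then taken from the other groups. Averaging also joined a nearly identical pair of NIC-Carm1 libraries, replicates 2 and 3 (2.69), which the main fit kept apart as well. Across all genes tested, 1175 differed between NIC-Prmt1 and NIC-Prmt6 (7.49%), 399 higher (2.54%) and 776 lower (4.94%) in NIC-Prmt1 by limma-trend at an adjusted p under 0.05. Differences of 2-fold or more numbered 174 higher and 300 lower. With the pair averaged, 21 genes were called (0.134%), 4 higher and 17 lower, and all 21 were among the 1175. The median standard error of a log2 fold change was then 0.24 rather than 0.17, while fold changes barely moved. Leaving out either NIC-Prmt6 library left 47 or 48 genes. Other libraries moved the count as well, to 2237 without NIC-Prmt1 replicate 1, 444 without NIC-Prmt1 replicate 3 and 1982 without NIC-Carm1 replicate 1. That last fit left NIC-Carm1 with only its nearly identical pair, and its median standard error was 0.15. Without NIC-Carm1 replicate 2 or 3 the count was 847 or 839. Rescaling to the upper quartile gave 577 higher and 550 lower, a more even split. In the sentences below, "averaged" gives the adjusted p with the pair as 1 library.

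**Figure D1:**
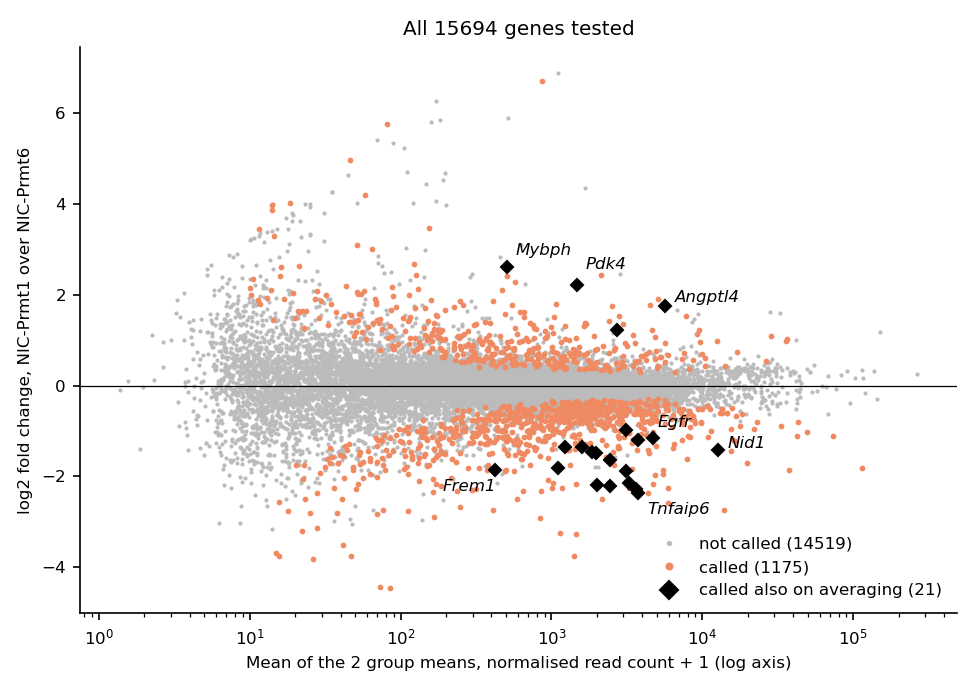
Log2 fold change of NIC-Prmt1 over NIC-Prmt6 (vertical) against the mean normalised read count (horizontal, log axis) for all 15694 genes tested. The 1175 genes called are orange, and the 21 also called with the near-identical libraries averaged are black diamonds, 4 above and 17 below 0.

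The targeted genes were read first. Prmt6 (chromosome 3, 110246109 to 110250998, minus strand, GRCm38) had 351, 272 and 355 in NIC-Prmt1, against 873 and 909 in NIC-Prmt6. Both NIC-Prmt6 libraries lay above every other library of the series, and the means were 326 ± 46.8 in NIC-Prmt1 (SD, n = 3) and 891 ± 25.6 in NIC-Prmt6 (SD, n = 2). The difference passed (log2 fold change -1.46 ± 0.19, adjusted p = 0.00300) and did not with the pair averaged (adjusted p = 0.105) or without either NIC-Prmt6 library (adjusted p = 0.0542 and 0.0574). Prmt1 (chromosome 7, 44975989 to 44986568, minus strand) had 2963, 2702 and 3258 in NIC-Prmt1, against 2669.5 and 2720.5 in NIC-Prmt6, and the groups overlapped (log2 fold change 0.14 ± 0.12, adjusted p = 0.490). The Prmt1 level therefore does not check the NIC-Prmt1 label, and the sources used here do not say whether reads of a transgene enter the mouse gene's count. Among the other arginine methyltransferases and their partners, none of the other 13 tested genes was called. Carm1 was at -0.13 and Prmt5, the main symmetric dimethylating enzyme, at 0.16 (adjusted p = 0.390 and 0.303).

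Of the 21 genes that differed also with the pair averaged, Has1, Tnfaip6, Ptx3, Ugdh and Uap1 are known to take part in making or binding hyaluronan, a large sugar of the matrix, and all were lower in NIC-Prmt1. Has1, a synthase that spins hyaluronan from UDP-sugars (chromosome 17, 17843323 to 17855205, minus strand), had 1094, 1251 and 1379 in NIC-Prmt1, against 5956 and 6034 in NIC-Prmt6 (log2 fold change -2.28 ± 0.22, adjusted p = 7.52e-04, and 0.0478 with the pair averaged). Tnfaip6, whose protein crosslinks hyaluronan and is induced in inflammation (chromosome 2, 52038009 to 52056686, plus strand), had 1169, 1292 and 1193 in NIC-Prmt1, against 6389.5 and 6228 in NIC-Prmt6, a 5.18-fold higher level in NIC-Prmt6 on limma's scale (log2 fold change -2.37 ± 0.15, adjusted p = 1.43e-04, and 0.0250 with the pair averaged). The 3 NIC-Prmt1 libraries lay close together and far below both NIC-Prmt6 libraries. Ptx3, a pentraxin that joins the same matrix (chromosome 3, 66219910 to 66225805, plus strand), had 1191, 1321 and 1087 in NIC-Prmt1, against 5213 and 5360.1 in NIC-Prmt6 (log2 fold change -2.14 ± 0.16, adjusted p = 2.60e-04, and 0.0342 with the pair averaged). Ugdh and Uap1 act in supplying the sugars. Ugdh, which makes UDP-glucuronic acid (chromosome 5, 65413221 to 65435949, minus strand), had 1109, 1355 and 1083 in NIC-Prmt1, against 3767 and 3581 in NIC-Prmt6 (log2 fold change -1.64 ± 0.14, adjusted p = 4.56e-04, and 0.0478 with the pair averaged). Uap1, which makes UDP-N-acetylglucosamine and was picked out after its values were seen, had 2856, 3006 and 2963 in NIC-Prmt1, against 6591 and 6424 in NIC-Prmt6 (log2 fold change -1.15 ± 0.10, adjusted p = 4.39e-04, and 0.0478 with the pair averaged). This grouping was made after the values were seen and was not tested as a list.

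Other genes of the extracellular matrix and its turnover were lower in NIC-Prmt1 as well. The basement membrane linker nidogen 1 (Nid1, chromosome 13, 13437551 to 13512269, plus strand) had 7592, 6562 and 6753 in NIC-Prmt1, against 18611 and 18667 in NIC-Prmt6 (log2 fold change -1.42 ± 0.10, adjusted p = 2.60e-04, and 0.0419 with the pair averaged). Frem1, a basement membrane protein, had 171, 193 and 179 in NIC-Prmt1, against 657 and 663 in NIC-Prmt6 (log2 fold change -1.87 ± 0.16, adjusted p = 4.39e-04, and 0.0419 with the pair averaged). In both genes the NIC-Prmt1 libraries stayed within a narrow band, well under NIC-Prmt6. The collagen receptor gene Mrc2 was at -1.47 ± 0.11 (averaged 0.0420), the metalloproteinase gene Mmp19 at -1.80 ± 0.15 (averaged 0.0478), and Cpxm1, of the carboxypeptidase family, at -1.87 ± 0.12 (averaged 0.0250). Ssc5d, a secreted scavenger receptor-like protein, had 773, 670.1 and 715 in NIC-Prmt1, against 3288 and 3289.8 in NIC-Prmt6 (log2 fold change -2.19 ± 0.20, adjusted p = 6.19e-04, and 0.0478 with the pair averaged). Fibroblast genes moved the same way, with a summed list of 9519, 7267 and 8161 CPM in NIC-Prmt1 and 19792 and 19812 CPM in NIC-Prmt6, and their part in these differences was not tested.

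The remaining falls included genes of inflammatory and growth factor signalling. The monocyte chemoattractant Ccl2 (chromosome 11, 82035571 to 82037453, plus strand) had 857, 837 and 909 in NIC-Prmt1, against 4018 and 4046 in NIC-Prmt6 (log2 fold change -2.22 ± 0.19, adjusted p = 4.39e-04, and 0.0470 with the pair averaged). The neutrophil chemokine Cxcl2 (chromosome 5, 90903871 to 90905938, plus strand) had 922, 843 and 939 in NIC-Prmt1, against 2279 and 2309 in NIC-Prmt6 (log2 fold change -1.35 ± 0.09, adjusted p = 1.43e-04, and 0.0342 with the pair averaged). It was also far higher in the NIC libraries, at 4795 and 4816, so that on this gene NIC-Prmt6 lay between NIC-Prmt1 and NIC. Ripk3, a kinase of necroptosis, fell by 1.47 on the log2 scale (averaged 0.0498). The epidermal growth factor receptor gene Egfr (chromosome 11, 16752203 to 16918158, plus strand) had 2504, 2345 and 2042 in NIC-Prmt1, against 5149 and 5311 in NIC-Prmt6 (log2 fold change -1.19 ± 0.09, adjusted p = 3.60e-04, and 0.0478 with the pair averaged). Sh2b3, an adaptor that damps cytokine receptor signalling, and B4galt5, a galactosyltransferase, were at -0.98 ± 0.08 and -1.36 ± 0.12 (averaged 0.0498 and 0.0498); these last were picked out after their values were seen. Macrophage genes were also lower in NIC-Prmt1, and their part in these falls was not tested.

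The 4 genes that were higher in NIC-Prmt1 with the pair averaged were Pdk4, Angptl4, Mybph and Plekhb1. Pdk4, a kinase that shuts pyruvate off from oxidation (chromosome 6, 5483351 to 5496309, minus strand), had 2767, 2079 and 2419 in NIC-Prmt1, against 505 and 525 in NIC-Prmt6 (log2 fold change 2.22 ± 0.16, adjusted p = 2.60e-04, and 0.0343 with the pair averaged). Angptl4, a secreted inhibitor of lipoprotein lipase (chromosome 17, 33773750 to 33781830, minus strand), had 8466, 7134 and 10845 in NIC-Prmt1, against 2536 and 2617 in NIC-Prmt6 (log2 fold change 1.75 ± 0.16, adjusted p = 5.86e-04, and 0.0497 with the pair averaged). Lpl itself, the lipase, had 2537, 2260.0 and 2312 in NIC-Prmt1, against 8621 and 8597 in NIC-Prmt6 and was lower in NIC-Prmt1 (log2 fold change -1.86 ± 0.29, adjusted p = 0.00742; averaged 0.147). Mybph, a myosin-binding protein (chromosome 1, 134193448 to 134201232, plus strand), had 859, 674 and 1071 in NIC-Prmt1, against 126 and 151 in NIC-Prmt6 (log2 fold change 2.62 ± 0.24, adjusted p = 6.28e-04, and 0.0487 with the pair averaged). Plekhb1, a pleckstrin homology domain protein, had 3877, 3549.5 and 4009 in NIC-Prmt1, against 1606 and 1637 in NIC-Prmt6 (log2 fold change 1.23 ± 0.11, adjusted p = 5.10e-04, and 0.0498 with the pair averaged). For these 4 genes no NIC-Prmt1 library came near the NIC-Prmt6 pair.

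**Figure D2:**
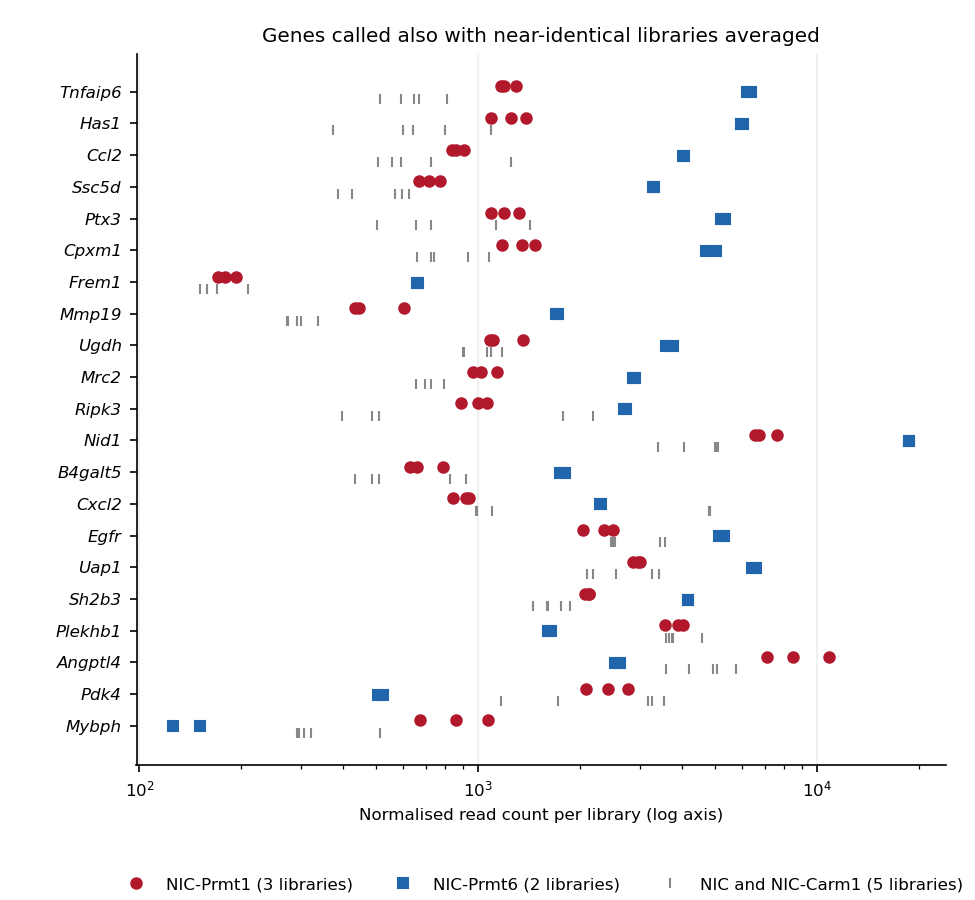
Normalised read count (log axis) of the 21 genes called also with near-identical libraries averaged, in the 3 NIC-Prmt1 libraries (red circles), the 2 NIC-Prmt6 libraries (blue squares) and the 5 NIC and NIC-Carm1 libraries (grey ticks). The groups do not overlap for any of the 21 genes; for Tnfaip6 the NIC-Prmt1 libraries reach up to 1292, and both NIC-Prmt6 libraries lie at 6228 or more.

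The called genes were also set beside the other genotypes, as a description. The nearly identical NIC-Prmt6 libraries act almost as 1 library, for which an extreme place is easier to reach than for 3 spread-out NIC-Prmt1 libraries, and the calls themselves rest on the small spread of that pair. Among the 776 genes lower in NIC-Prmt1, both NIC-Prmt6 libraries lay above all 8 other libraries of the series for 677 genes (87.2%), and all 3 NIC-Prmt1 libraries lay below the other 7 for 58 genes (7.47%). Among the 399 genes higher in NIC-Prmt1, NIC-Prmt6 lay below all other libraries for 241 (60.4%) and NIC-Prmt1 above all others for 133 (33.3%). Over all 15694 genes the NIC-Prmt6 pair was above the rest for 15.5% and below for 11.1%, and NIC-Prmt1 for 3.72% and 2.59%. A call already sets the 2 groups in order, so these shares are not a like base. Of 4202 genes with every NIC-Prmt1 library below both NIC-Prmt6 libraries, 2438 had NIC-Prmt6 above all others and 406 NIC-Prmt1 below all. Of 3516 genes with the reverse order, 1739 had NIC-Prmt6 below all others and 584 NIC-Prmt1 above all. Of the 21 genes called on averaging, 16 had NIC-Prmt6 highest of all 10 libraries and 4 had it lowest; the exception was Cxcl2. Between these 5 libraries alone, every NIC-Prmt1 library was above both NIC-Prmt6 libraries for 22.4% of all genes and below both for 26.8%, and a lack of overlap by itself is common in this comparison.

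Some called genes had larger fold changes, and the calls of those given here ended on averaging. These genes were picked after their values were seen, from the 12 largest called falls and the 12 largest called rises. Those had a mean of 50 or more in the higher group, non-overlapping groups and no clone name. Not all are described: Pkd1l2, at -3.76 ± 0.88, and Ptprn, at -3.51 ± 0.49, fell further than several given here (averaged 0.296 and 0.155). Fgf10, a stromal growth factor needed for the mammary bud, had 241, 202 and 208 in NIC-Prmt1, against 2066 and 2058 in NIC-Prmt6 (log2 fold change -3.25 ± 0.49, adjusted p = 0.00615; averaged 0.125). Its NIC-Prmt1 values were far under those in NIC-Prmt6 and above the NIC libraries, at 83.2 and 133. Bmper, a secreted regulator of bone morphogenetic proteins, had 219.6, 162 and 211 in NIC-Prmt1, against 1509 and 1472 in NIC-Prmt6 (log2 fold change -2.92 ± 0.37, adjusted p = 0.00295; averaged 0.0993). Rspo4, a secreted enhancer of Wnt signalling, was at -4.45 ± 0.92 and the sensory-type receptor gene Mrgprg at -4.43 ± 0.63 (averaged 0.249 and 0.155). Both lay near the floor in NIC-Prmt1, with 20 and 18 recovered reads over all its libraries, so the size of these falls is loosely measured. Scgb1b27, a secretoglobin of a family with close copies whose reads may be shared, was at -3.26 ± 0.40 (averaged 0.0842). Clec4e, a receptor of activated macrophages for damaged cells and fungi, had 14.9, 20.7 and 13.4 in NIC-Prmt1, against 112 and 129.9 in NIC-Prmt6 (log2 fold change -2.84 ± 0.27, adjusted p = 7.01e-04, and 0.0553 with the pair averaged). In NIC, Clec4e was higher still, at 187 and 170, so NIC-Prmt6 was not its highest group.

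Several of the largest rises were genes of stratified skin and hair, and these were uneven within NIC-Prmt1. Krt71, a keratin of the hair follicle's inner root sheath, had 5045, 67.3 and 81.6 in NIC-Prmt1, against 0.906 and 3.44 in NIC-Prmt6 (log2 fold change 6.71 ± 1.47, adjusted p = 0.0246; averaged 0.289). Summed over the groups these were 4900 and 5 recovered reads, a ratio of 773 after scaling (exact 95% interval 331 to 2380, for counting error only). Replicate 1 held most of those reads. The skin and hair list summed to 1334, 26.1 and 126 CPM in NIC-Prmt1 and 29.6 and 30.6 CPM in NIC-Prmt6. All 14 tested members had a positive fold change and 2 were called, Krt71 and the desmosome gene Dsc1. Dsc1 had 432, 8.29 and 38.2 in NIC-Prmt1, no reads in NIC-Prmt6 and at most 4.85 in NIC and NIC-Carm1. It passed the read count filter through NIC-Prmt1 alone, which set its sign. Members nearly absent from NIC-Prmt6 could enter only through other libraries, which favours a positive sign. The shared sign of the list is therefore not a separate result. The median over the 14 was 4.62, or 3.87 with the 8 members that had at most 3 reads in each NIC-Prmt6 library set against a floor of 3 reads per library on the same log scale, and 2.76 without replicate 1. By the summed CPM, NIC-Prmt1 replicate 2 lay below both NIC-Prmt6 libraries, while its Krt71 value was above both. Lgals7, a galectin of stratified epithelia, had 1474, 369 and 784 in NIC-Prmt1, against 139 and 144 in NIC-Prmt6 (log2 fold change 2.41 ± 0.42, adjusted p = 0.0106; averaged 0.195). Not all large rises were of skin: Dppa1 had 184, 273 and 387 in NIC-Prmt1, against 24.4 and 22.4 in NIC-Prmt6 (log2 fold change 3.47 ± 0.61, adjusted p = 0.0108; averaged 0.175).

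Members of 57 lists, for cell types and for pathways, were read next. Of the 724 tested list genes, 124 were called, and 3 with the pair averaged (Ccl2, Cxcl2 and Egfr). The count was 8 without either NIC-Prmt6 library and 64 without NIC-Prmt1 replicate 3. It was 190 without NIC-Carm1 replicate 1, a fit that left NIC-Carm1 with only its nearly identical pair. List counts below are those of all 10 libraries, to be read against 2.54% higher and 4.94% lower over all genes and a median log2 fold change over all genes of -0.0029. Upper-quartile rescaling raised that median to 0.069. In these counts, genes that rose or fell are those called. In these bulk libraries, fewer cells of a type and less RNA per cell cannot be told apart.

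Fibroblast genes were lower in NIC-Prmt1. All 12 tested fibroblast genes fell, with a median of -1.06, and the list summed to 9519, 7267 and 8161 CPM in NIC-Prmt1 and 19792 and 19812 CPM in NIC-Prmt6. Lum, a collagen-binding proteoglycan, had 4446, 3527 and 3747 in NIC-Prmt1, against 11922 and 11995 in NIC-Prmt6 (log2 fold change -1.62 ± 0.17, adjusted p = 9.36e-04; averaged 0.0538). Gsn, an actin-severing protein that fibroblasts also secrete, had 59964, 44432 and 49352 in NIC-Prmt1, against 177623 and 179591 in NIC-Prmt6 (log2 fold change -1.81 ± 0.29, adjusted p = 0.00761). The collagen gene Col3a1 had 51529.6, 40058 and 48762 in NIC-Prmt1, against 100537 and 99493 in NIC-Prmt6 (log2 fold change -1.10 ± 0.19, adjusted p = 0.00972). The 2 largest fold changes of the list were in Pi16 and Dpt, genes of adventitial fibroblasts, at -2.37 ± 0.41 and -2.26 ± 0.39 (adjusted p = 0.00989 and 0.00977). Without NIC-Prmt1 replicate 3, 8 of the 12 were called, and without NIC-Prmt6 replicate 1, 1. The platelet-derived growth factor receptor gene Pdgfra, at -0.73 ± 0.16, was also in this list (adjusted p = 0.0229).

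Matrix, mesenchymal and complement lists held falls as well. Among 12 other collagen genes 6 fell and none rose (median -0.48; 2 called without NIC-Prmt1 replicate 3), with Col5a1, which nucleates collagen fibrils, at -1.12 ± 0.14 (adjusted p = 0.00263). Of 15 matrix proteases and inhibitors 5 fell and none rose (median -0.66). The urokinase gene Plau had 1724, 1813 and 1887 in NIC-Prmt1, against 3214 and 3459 in NIC-Prmt6 (log2 fold change -0.88 ± 0.10, adjusted p = 0.00220; averaged 0.0673), and the aggrecanase gene Adamts4 was at -0.96 ± 0.18. In the mesenchymal list 5 of 12 fell and none rose (median -0.65; 1 called without NIC-Prmt1 replicate 2 and 2 without replicate 3). Fibronectin (Fn1) had 16494, 18695 and 13855 in NIC-Prmt1, against 57822 and 59910.5 in NIC-Prmt6 (log2 fold change -1.86 ± 0.27, adjusted p = 0.00485; averaged 0.118). The transcription factor genes Snai1 and Twist1 fell by 0.67 and 0.97 on the log2 scale (adjusted p = 0.0266 and 0.0268). The laminin and integrin list divided: Lama4, Lamb1, Lamc1 and the fibronectin receptor gene Itga5 fell, and 3 genes rose, among them Lama3 and Itga2, with Lama4 at -0.64 ± 0.08 and Lama3 at 0.82 ± 0.21. Of 11 complement genes 5 fell and none rose (median -0.92). Complement C3 had 8163, 10942 and 9070.4 in NIC-Prmt1, against 30019 and 30455 in NIC-Prmt6 (log2 fold change -1.70 ± 0.19, adjusted p = 0.00156; averaged 0.0687), and C1ra and C1s1, the proteases that start the classical pathway, were at -1.06 ± 0.13 and -0.92 ± 0.13.

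Several macrophage genes were lower too. Of 12 tested, 7 fell and none rose (median -0.94; 1 called without NIC-Prmt1 replicate 3), and the list summed to 324, 581 and 483 CPM in NIC-Prmt1 and 889.7 and 909.9 CPM in NIC-Prmt6. Cd68, a lysosomal protein of macrophages, had 580.3, 840.0 and 682 in NIC-Prmt1, against 1360.1 and 1386 in NIC-Prmt6 (log2 fold change -0.99 ± 0.17, adjusted p = 0.0103; averaged 0.195). The receptor gene for the macrophage growth factor, Csf1r, had 1188, 2316 and 1844 in NIC-Prmt1, against 3751 and 3944 in NIC-Prmt6 (log2 fold change -1.16 ± 0.28, adjusted p = 0.0374). In both genes NIC-Prmt1 replicate 2 was the highest of its group and replicate 1 the lowest. Among 11 genes of alternatively activated macrophages the lectin gene Clec10a was the one that passed (log2 fold change -1.60 ± 0.40, adjusted p = 0.0415; averaged 0.313). Their median was -1.48, with Retnla at 974, 2582 and 1638 in NIC-Prmt1, against 4502 and 4686 in NIC-Prmt6 (adjusted p = 0.208) and Mrc1 at -1.79 (adjusted p = 0.0850). All 9 mast cell genes had negative fold changes and 1, the transcription factor gene Gata2, passed (log2 fold change -0.92 ± 0.24, adjusted p = 0.0469); the list summed to 117, 176 and 177 CPM in NIC-Prmt1 and 291 and 291 CPM in NIC-Prmt6. In 12 genes of T and NK cells, Thy1, which fibroblasts also make, fell by 0.68 (adjusted p = 0.0126), and the T cell receptor chain gene Cd3e was at -0.13 (adjusted p = 0.919). None of the B cell, neutrophil or MHC class I and II genes was called.

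Several basal and myoepithelial genes were higher in NIC-Prmt1. Of 12 tested, 7 rose and none fell (median 1.07), 4 without NIC-Prmt1 replicate 3, and the list summed to 7599.7, 4363 and 5566 CPM in NIC-Prmt1 and 2874 and 2876 CPM in NIC-Prmt6. Acta2, smooth muscle actin, had 47531, 29112 and 41248 in NIC-Prmt1, against 18055 and 18004 in NIC-Prmt6 (log2 fold change 1.09 ± 0.18, adjusted p = 0.00771; averaged 0.193). Cnn1, a calponin of contractile cells, had 5276, 3222 and 4463 in NIC-Prmt1, against 1645 and 1642 in NIC-Prmt6 (log2 fold change 1.36 ± 0.17, adjusted p = 0.00269; averaged 0.105). Krt5, a basal keratin, had 10794, 4320.1 and 6037 in NIC-Prmt1, against 1829 and 1992 in NIC-Prmt6 (log2 fold change 1.78 ± 0.30, adjusted p = 0.00972; averaged 0.189), with NIC-Prmt1 replicate 1 far above replicate 2. Trp63, the transcription factor of basal epithelia, was at 1.40 ± 0.26 and the oxytocin receptor gene Oxtr at 1.04 ± 0.25. Skin makes the basal keratins too, and the skin list, given above, was highest in the same library, replicate 1; its part in the basal genes was not tested. Without replicate 1 the basal list had a median of 0.84 and 7 calls, in a fit whose calls of higher genes numbered 948 over all genes, against 399 with all libraries.

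Some luminal genes were higher as well. In the luminal epithelium list 3 of 14 rose and none fell (median 0.31): Krt7 had 9146, 7974 and 9442 in NIC-Prmt1, against 5792 and 5923 in NIC-Prmt6 (log2 fold change 0.59 ± 0.11, adjusted p = 0.0112), Krt19 was at 0.55 ± 0.14 and the transcription factor gene Grhl2 at 0.48 ± 0.07. Krt8, Krt18 and Epcam, at 0.29, 0.32 and 0.30, did not pass, and their groups overlapped. Of 13 genes of hormone-sensing luminal cells 2 rose (median 0.41): the growth factor gene Areg, induced by oestrogen, and the membrane gene Prom1 (log2 fold change 0.95 ± 0.19, adjusted p = 0.0193). The receptor genes Esr1 and Pgr were at -0.37 and 0.12 and did not pass (adjusted p = 0.489 and 0.694). Of 11 luminal progenitor genes, Slpi and the casein gene Csn3 rose. Slpi, a secreted protease inhibitor, had 5199, 2623 and 4831 in NIC-Prmt1, against 1355 and 1432 in NIC-Prmt6 (log2 fold change 1.54 ± 0.23, adjusted p = 0.00623; averaged 0.165). No other milk gene passed, and Csn2, a major casein gene, was at 1342, 487 and 7259.8 in NIC-Prmt1, against 1148 and 1134 in NIC-Prmt6 (adjusted p = 0.856).

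**Figure D3:**
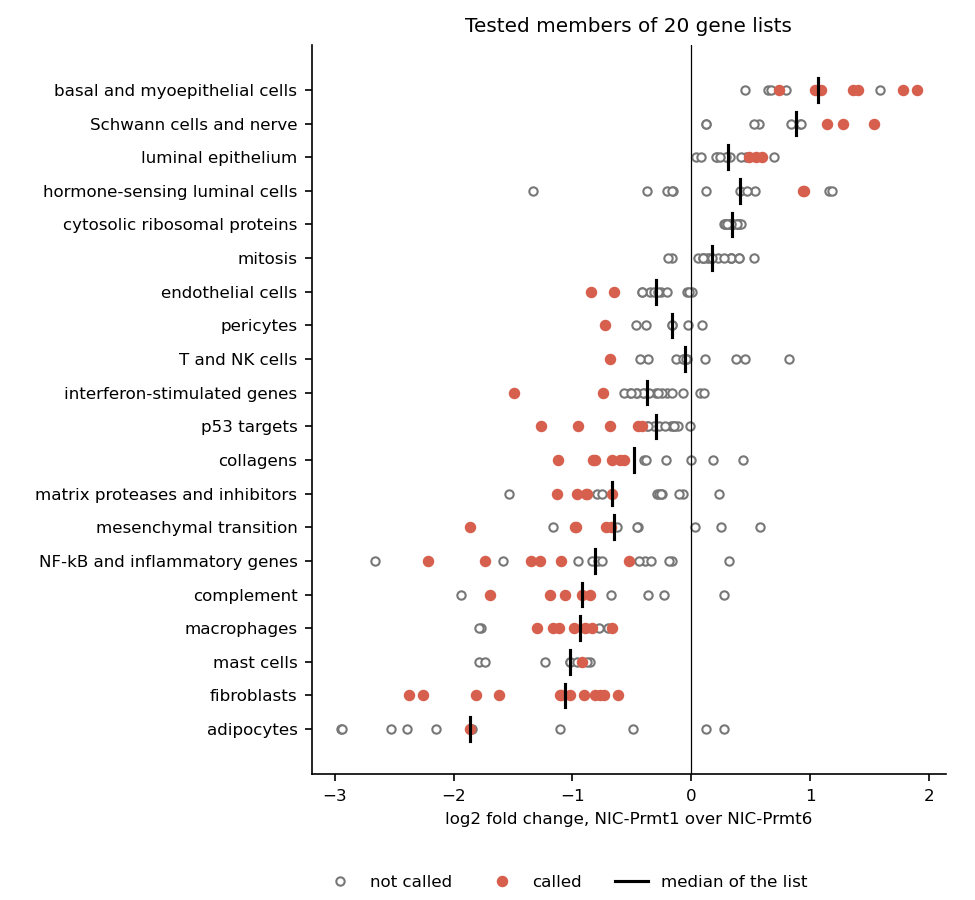
Log2 fold change of NIC-Prmt1 over NIC-Prmt6 for every tested member of 20 gene lists, with members called filled red, others open, and the list's median as a bar. The fibroblast list lies wholly below 0 with all 12 members called, and the basal and myoepithelial list wholly above 0 with 7 of 12.

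Some nerve sheath genes were called higher in NIC-Prmt1, and a few fat and vessel genes were called lower. All 10 genes of Schwann cells and nerve had positive fold changes and 3 rose (median 0.88). The myelin gene Mbp had 16436, 11254 and 10671 in NIC-Prmt1, against 5594 and 5799 in NIC-Prmt6 (log2 fold change 1.14 ± 0.24, adjusted p = 0.0204; averaged 0.241), and Prx, a gene of the myelin sheath of nerves, was at 1.28 ± 0.26. Of 11 adipocyte genes 9 had negative fold changes, Lpl alone was called, and the median was -1.86. The fat hormone gene Adipoq had 57.3, 23.8 and 20.7 in NIC-Prmt1, against 227 and 259 in NIC-Prmt6, with replicate 1 above the other NIC-Prmt1 libraries (log2 fold change -2.95 ± 0.89, adjusted p = 0.0744). Among 12 endothelial genes the growth factor receptor genes Flt1 and Kdr fell, at -0.84 ± 0.16 and -0.65 ± 0.14 (averaged 0.224 and 0.298), while Pecam1 and Vwf were at -0.033 and -0.018. Of 7 pericyte genes the channel subunit gene Abcc9 fell by 0.73 (adjusted p = 0.0207). In the skeletal muscle list the creatine kinase gene Ckm had 61.5, 260.0 and 328 in NIC-Prmt1, against 29.0 and 24.1 in NIC-Prmt6 (log2 fold change 2.67 ± 0.66, adjusted p = 0.0393) and Mb rose by 0.87.

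Some inflammatory genes under NF-kB, the transcription factor family that drives chemokine genes, were lower in NIC-Prmt1. Of 18 tested, 6 fell, none rose and 12 did not pass (median -0.81): Ccl2, Cxcl2, Ccl7, Cxcl1, Ptgs2 and Il6, with 4 called without NIC-Prmt1 replicate 3. Ccl7, a chemokine next to Ccl2, had 292, 401 and 304 in NIC-Prmt1, against 1112 and 1089 in NIC-Prmt6 (log2 fold change -1.74 ± 0.18, adjusted p = 9.36e-04; averaged 0.0673). Cxcl1 had 6132, 4338 and 4885 in NIC-Prmt1, against 10976 and 10734 in NIC-Prmt6 (log2 fold change -1.10 ± 0.14, adjusted p = 0.00269; averaged 0.116) and the interleukin gene Il6 had 6166, 5536 and 5618 in NIC-Prmt1, against 8243 and 8296 in NIC-Prmt6 (log2 fold change -0.52 ± 0.11, adjusted p = 0.0219; averaged 0.295). In NIC, Cxcl1 averaged 15671 and Il6 3349, so that the pair of genes did not share a place among the 4 genotypes. The macrophage list, with 7 of 12 genes lower, and the fibroblast list, with 12 of 12, moved with these genes, and their part was not tested. Promoters are printed for Cxcl2, which was called on averaging, and for Cxcl1 and Il6, chosen after their values were seen, because all 3 hold matches to the NF-kB consensus motif. Both strands were searched, and in these 3 the capitals mark the NF-kB matches alone. For Tnfaip6 the capitals mark the AP-1 motif TGANTCA, a site of the Fos and Jun factors; the Il6 promoter also holds an AP-1 match near the start of the printed window, left in lower case. The motifs were chosen after the data were seen, and the form of the NF-kB motif was changed once to the usual consensus. Sequences are from RefSeq (GRCm38.p6), from before to just after the gene start, 5′ to 3′ on the gene's strand.
Cxcl2 promoter, chr5:90903649-90903948, plus strand: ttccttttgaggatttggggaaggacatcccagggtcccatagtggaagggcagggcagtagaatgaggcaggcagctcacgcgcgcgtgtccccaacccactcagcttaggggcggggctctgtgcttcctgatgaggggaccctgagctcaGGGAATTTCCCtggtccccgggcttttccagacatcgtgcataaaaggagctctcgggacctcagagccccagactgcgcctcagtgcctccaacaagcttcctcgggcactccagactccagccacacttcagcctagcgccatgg
Cxcl1 promoter, chr5:90890995-90891294, plus strand: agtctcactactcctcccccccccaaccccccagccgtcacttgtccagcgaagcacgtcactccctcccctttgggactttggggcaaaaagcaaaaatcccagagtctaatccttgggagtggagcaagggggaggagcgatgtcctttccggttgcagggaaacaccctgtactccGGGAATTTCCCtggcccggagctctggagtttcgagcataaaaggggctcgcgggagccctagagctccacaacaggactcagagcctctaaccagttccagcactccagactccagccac
Il6 promoter, chr5:30012864-30013163, plus strand: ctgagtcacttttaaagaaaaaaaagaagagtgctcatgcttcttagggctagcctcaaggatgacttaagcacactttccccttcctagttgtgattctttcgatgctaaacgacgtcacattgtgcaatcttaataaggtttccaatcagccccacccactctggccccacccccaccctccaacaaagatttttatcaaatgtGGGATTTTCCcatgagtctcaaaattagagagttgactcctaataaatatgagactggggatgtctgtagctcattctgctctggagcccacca
Tnfaip6 promoter, chr2:52037863-52038162, plus strand: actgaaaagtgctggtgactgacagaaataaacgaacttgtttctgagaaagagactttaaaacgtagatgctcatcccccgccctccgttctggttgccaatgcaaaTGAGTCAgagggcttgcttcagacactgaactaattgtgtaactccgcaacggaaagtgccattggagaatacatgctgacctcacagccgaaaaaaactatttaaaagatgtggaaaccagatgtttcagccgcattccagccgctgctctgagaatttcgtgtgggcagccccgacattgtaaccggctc

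In Cxcl2 and in Cxcl1 the 2 matches, GGGAATTTCC and GGAATTTCCC, overlapped on opposite strands, Il6 held GGGATTTTCC, and Tnfaip6 held TGAGTCA. Of all 32851 RefSeq promoters of this length, 8.46% held the NF-kB motif and 7.81% the AP-1 motif. Among the NF-kB list, 8 of 14 genes with a RefSeq promoter held the NF-kB motif. Of these, Cxcl1, Cxcl2 and Il6 were called, and Ccl20, Cxcl3, Nfkb2, Nfkbia and Tnfaip3 were not. The list was written as genes under NF-kB, so this share is not an independent result. Among the genes called on averaging, 2 of 16 held the NF-kB motif, Cxcl2 and Ptx3, and the AP-1 motif was in 1 of 16, Tnfaip6. In the NF-kB list the AP-1 motif was in 4 of 14, Il1a, Il6, Nfkb2 and Tnfaip3. A match describes letters in this window only.

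The ErbB receptor system, to which Neu belongs, differed in single members. Of 15 receptors, ligands and regulators, 2 rose and 2 fell (median -0.023). Egfr and the ErbB3 and ErbB4 ligand gene Nrg1 were lower in NIC-Prmt1; Nrg1 had 121, 115 and 113 in NIC-Prmt1, against 244 and 241 in NIC-Prmt6 (log2 fold change -1.05 ± 0.18, adjusted p = 0.00892; averaged 0.193). The Egfr ligand genes Areg and Btc were higher. Areg had 7844, 6732 and 7789 in NIC-Prmt1, against 3796 and 3945 in NIC-Prmt6 (log2 fold change 0.94 ± 0.09, adjusted p = 7.52e-04; averaged 0.0695), and Btc had 301, 335 and 395 in NIC-Prmt1, against 159 and 162 in NIC-Prmt6 (log2 fold change 1.08 ± 0.17, adjusted p = 0.00742; averaged 0.180). Erbb2 had 5714, 11187 and 6282 in NIC-Prmt1, against 8242 and 8372 in NIC-Prmt6, with the NIC-Prmt6 libraries inside the range of NIC-Prmt1 (log2 fold change -0.17 ± 0.27, adjusted p = 0.730), and Erbb3 was at 0.079 (adjusted p = 0.770).

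In other signalling lists part of the members passed, among them 3 higher and 1 lower of 13 tested Wnt genes. Of 18 interferon-stimulated genes 2 fell, Oas2, an antiviral RNA sensor, at -1.49 ± 0.27, and Stat2 at -0.74 ± 0.14 (median -0.38). Of 13 Notch genes the ligand Dll4 and the receptors Notch2 and Notch4 fell, and Dll4 had 1481, 1639 and 1809.5 in NIC-Prmt1, against 3057 and 3026 in NIC-Prmt6 (log2 fold change -0.89 ± 0.10, adjusted p = 0.00182; averaged 0.105). In the Wnt list the targets Lgr5 and Rnf43 and the secreted Dkk3 rose, Sfrp2 fell, and Lgr5 had 808, 446 and 462 in NIC-Prmt1, against 216 and 203 in NIC-Prmt6 (log2 fold change 1.39 ± 0.28, adjusted p = 0.0184; averaged 0.245). In the TGF-beta list Tgfb3 rose by 0.56 ± 0.10, and the receptor gene Tgfbr2 was at -0.59 ± 0.13. Of 16 p53 targets 5 fell and none rose (median -0.29; 2 called without NIC-Prmt1 replicate 3), with the death receptor gene Eda2r at -1.27 ± 0.21. The cell cycle inhibitor gene Cdkn1a had 5901, 5405 and 5598 in NIC-Prmt1, against 7531 and 7478 in NIC-Prmt6 (log2 fold change -0.41 ± 0.10, adjusted p = 0.0324; averaged 0.363). Rb1, the retinoblastoma gene, rose by 0.73 ± 0.17 (adjusted p = 0.0286). Of 8 genes of the aryl hydrocarbon receptor and its targets 3 fell and 1 rose (median -0.71; 1 called without NIC-Prmt1 replicate 3). Cyp1a1, a detoxifying enzyme induced through the aryl hydrocarbon receptor, had 82.7, 26.9 and 22.7 in NIC-Prmt1, against 302 and 267 in NIC-Prmt6 (log2 fold change -2.90 ± 0.55, adjusted p = 0.0136; averaged 0.193), and the receptor gene Ahr fell by 0.60. Nqo1, which both this receptor and NRF2 induce, rose by 0.67 ± 0.12. Cyp1a1 was higher still in NIC, at 838 and 616.

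Metabolic and stress genes changed in single members. The first enzyme of glycolysis in growing cells, Hk2, had 1499, 1565 and 1544 in NIC-Prmt1, against 3942 and 3966 in NIC-Prmt6 (log2 fold change -1.36 ± 0.22, adjusted p = 0.00761; averaged 0.150), while the other 13 tested glycolysis genes did not pass. Egln3, a hypoxia-induced oxygen sensor, had 1001, 1764 and 1482 in NIC-Prmt1, against 586 and 646 in NIC-Prmt6 (log2 fold change 1.16 ± 0.19, adjusted p = 0.00810; averaged 0.185). Of 16 cholesterol synthesis genes 3 fell, among them Insig1 and Hmgcs1, at -0.62 ± 0.10 and -0.65 ± 0.17. The heat shock genes Bag3 and Hsph1 fell by 0.52 and 0.68, and the chaperone gene Pdia6 rose by 0.62 ± 0.16. In the amino acid stress list the cystine transporter gene Slc7a11 and Vldlr fell, at -1.01 ± 0.24 and -0.89 ± 0.15. Per2, of the circadian clock, fell by 0.77 and the histone demethylase gene Kdm6b by 0.52. None of the 18 mitosis, 18 DNA replication or 18 immediate early genes was called, nor any fatty acid synthesis gene.

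Housekeeping lists had small fold changes and no calls. All 18 cytosolic ribosomal protein genes were higher in each NIC-Prmt1 library than in both NIC-Prmt6 libraries, against 22.4% of all genes, with fold changes between 0.28 and 0.42 and a median of 0.34. None passed with all 10 libraries, and 12 passed without NIC-Prmt1 replicate 1. All 18 respiratory chain genes had positive fold changes, with a median of 0.23, and none passed. Proteasome genes had a median of 0.20, and splicing regulators of the SR and hnRNP families -0.070, with no call in either list.

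The 3 NIC-Prmt1 libraries differed from each other in their cell markers, which bears on every mean of that group. On the first principal component (40.4% of the variance) NIC-Prmt1 lay at -65.7, -1.05 and -32.9. NIC-Prmt6, at -49.9 and -49.3, fell inside that range, so this component did not set the 2 groups apart. The second component (17.2% of the variance) did, with NIC-Prmt1 at 51.5, -0.034 and 32.2 and NIC-Prmt6 at -42.9 and -42.8. The mitosis list came to 135, 390.3 and 180.2 CPM in NIC-Prmt1 and 192 and 194 CPM in NIC-Prmt6. Replicate 2 stood out there, and also in B cell genes, which summed to 5.21, 65.2 and 4.86 CPM in NIC-Prmt1 and 6.27 and 6.51 CPM in NIC-Prmt6. The proliferation gene Mki67 had 807, 2542 and 1019 in NIC-Prmt1, against 1523 and 1413 in NIC-Prmt6, with NIC-Prmt6 inside the range of NIC-Prmt1 (log2 fold change -0.20 ± 0.36, adjusted p = 0.772). MHC class II genes were also highest in replicate 2, summing to 412, 967 and 751 CPM in NIC-Prmt1 and 839.6 and 853 CPM in NIC-Prmt6. The part of these cells in the gene differences was not tested. Leaving out replicate 2 left 936 genes called, 370 higher and 566 lower.

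**Figure D4:**
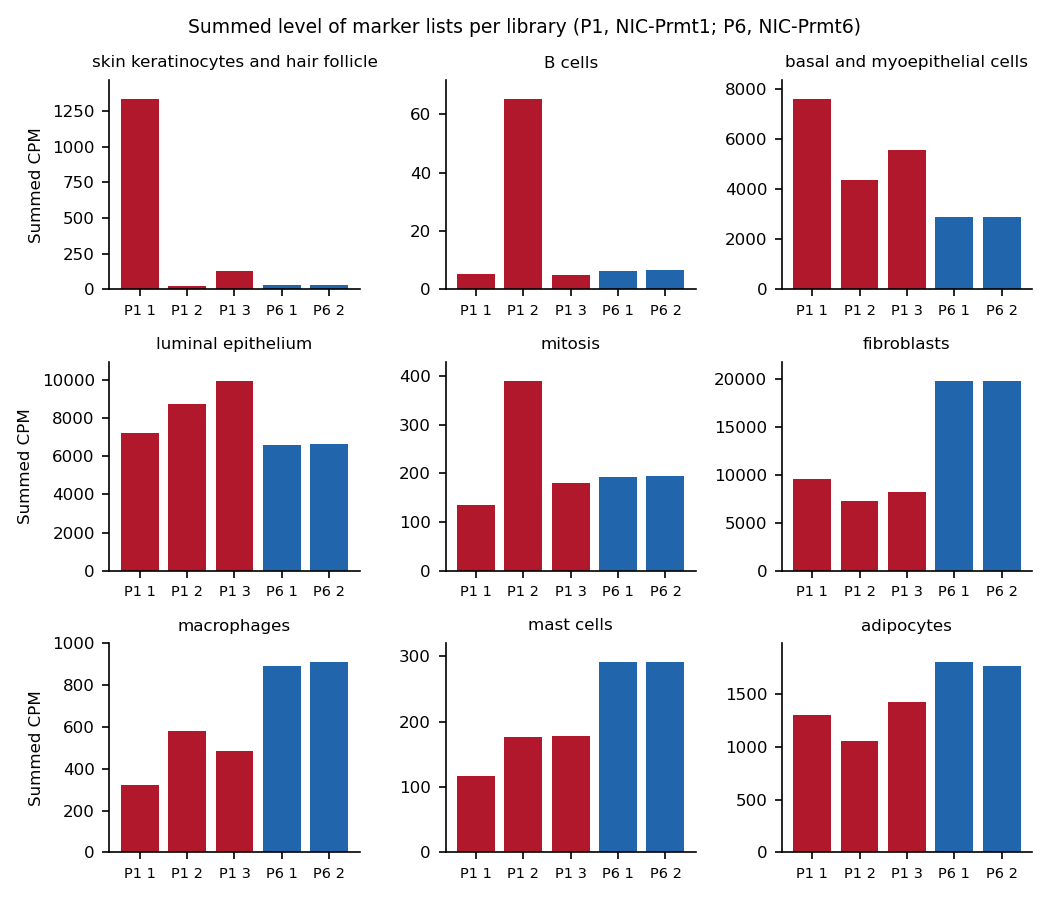
Summed CPM (recovered reads scaled to each library's total; linear axes from 0) of 9 marker lists in the 3 NIC-Prmt1 libraries (P1, red) and the 2 NIC-Prmt6 libraries (P6, blue). Skin genes peak in NIC-Prmt1 replicate 1 (1334 CPM), B cell and mitosis genes in replicate 2, and fibroblast genes reach 19792 and 19812 CPM in NIC-Prmt6.

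**Figure D5:**
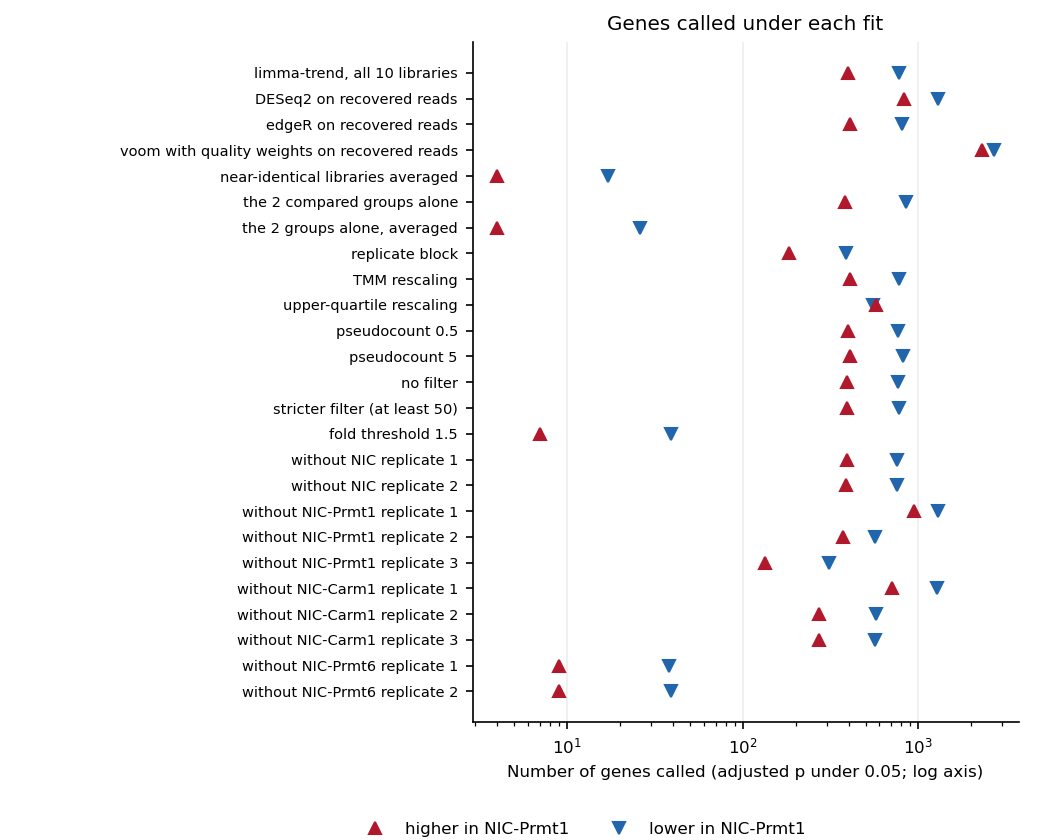
Number of genes called (log axis) higher (red) and lower (blue) in NIC-Prmt1 under each fit. With both NIC-Prmt6 libraries kept apart, 133 or more genes are higher and 311 or more lower, except under the fold threshold with 7 higher and 39 lower; on averaging 4 are higher and 17 lower (4 and 26 with the 2 groups alone), and without either NIC-Prmt6 library 9 are higher and 38 or 39 lower.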

How the data were processed

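RNA of mammary epithelial cells was sequenced as poly-A libraries, per the labels' protocols. The submitters' processing notes name TopHat2 2.0.10, HTSeq 0.6.0, DESeq 1.18.0 and mm10. The gene annotation, strand setting and filters were not given in the sources used here. The authors deposited 1 table of normalised signal. Every deposited value was a whole multiple of its library's smallest step (100% within 0.01), so that whole reads were recovered. Genes with under 10 reads in their highest library are not in the table.

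Here log2(value + 1) was tested with limma-trend (R 4.3.3, limma 3.58.1) in 1 fit of all 10 libraries with 4 group means, NIC-Prmt1 minus NIC-Prmt6, adjusted by Benjamini-Hochberg over 15694 genes at 0.05. Values are normalised read counts, fold changes are log2 ± standard error on that scale, and list sums are CPM of recovered reads. Simulated counts of 15495 genes for this comparison gave 63% recovery of 2-fold and 91.9% of 4-fold changes, with 10 false calls among 164, without near-identical libraries. Members, lists and rules were chosen with earlier results of these data known. Named were the targeted genes, the 12 largest rises and falls that passed also on averaging, with non-overlapping groups and no clone name, and up to 3 called members per list; other genes are said to be picked after their values were seen or belong to a list described. Alternatives were edgeR 4.0.16, DESeq2 1.42.0 and voom on recovered reads, averaging, the 2 groups alone, a replicate block, rescalings, pseudocounts, filters, leaving out each library, and a fold threshold. Deviations of same-numbered libraries from their group means had correlations of 0.019 and 0.015. With only 2 nearly identical NIC-Prmt6 libraries, whose deviations mirror each other, this check cannot decide whether libraries are paired. No set test was run. Promoters were searched for motifs on both strands. Gene positions are from GENCODE for GRCm38 by symbol. Overlapping genes and close copies are uncertain as single genes.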

Additional observations from a re-analysis of the deposited data

How the results depend on the processing

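The count of 1175 genes (399 higher, 776 lower; 124 list genes) depends most on the NIC-Prmt6 pair. It was 21 (4 and 17; 3 list genes) with near-identical libraries averaged, 30 (4 and 26; 4) with the 2 groups alone and averaged, and 46 (7 and 39; 6) with a 1.5-fold threshold. Leaving out 1 library at a time gave 47 to 2237 genes, 9 to 948 higher and 38 to 1289 lower, and 8 to 190 list genes. DESeq2 gave 2119 (828 and 1291; 197 list genes) and voom 4973 (2290 and 2683; 355). The replicate block, for which a pairing of same-numbered libraries is not known, gave 571 (184 higher and 387 lower, 80 list genes). The other settings stayed within 1.5 times of these counts: edgeR gave 1210, the 2 groups alone 1233, TMM rescaling 1180, upper-quartile rescaling 1127, pseudocounts 1159 and 1232, no filter 1154 and the stricter filter 1162. Prmt6 kept its direction in all 24 alternatives and lost its call with the pair averaged (-1.46, adjusted p = 0.105), with the 2 groups alone and averaged (-1.46, adjusted p = 0.101), under the fold threshold (-1.46, adjusted p = 0.0922) and without either NIC-Prmt6 library; leaving out 1 library at a time gave -1.52 to -1.33. Of 123 called genes under the naming rules, each kept its sign in all alternatives, 69 kept their call in the 19 that keep both NIC-Prmt6 libraries and set no fold threshold, and 10 kept it in all 24: Ccl2, Cpxm1, Has1, Mrc2, Mybph, Pdk4, Ptx3, Ssc5d, Tnfaip6 and Ugdh. Depth limits only genes with few reads, such as the skin genes in NIC-Prmt6 and Rspo4 and Mrgprg in NIC-Prmt1.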

Other observations

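Readers and substrates of arginine methylation held no called gene among 19 tested, with a median log2 fold change of -0.083 between NIC-Prmt1 and NIC-Prmt6. Krt14, the basal partner of Krt5, had 18959, 8290.2 and 15615 normalised reads in NIC-Prmt1, against 4462 and 4515 in NIC-Prmt6 and did not pass (limma-trend log2 fold change 1.59 ± 0.43, adjusted p = 0.0511). The sebaceous gland list of 8 genes had 1 rise, the desaturase gene Fads2, at 0.73 ± 0.16 (adjusted p = 0.0226). Among 9 dendritic cell genes the transcription factor gene Zbtb46 fell, at -0.74 ± 0.15 (adjusted p = 0.0204). Cdkn2a, a locus of cell cycle inhibitors, was lower in all 3 NIC-Prmt1 libraries than in both NIC-Prmt6 libraries (log2 fold change -1.70 ± 0.41, adjusted p = 0.0356; 0.318 with the pair averaged). Of 12 NRF2 antioxidant genes Nqo1 rose, and Gclc, Slc7a11 and the factor's own gene Nfe2l2 fell, with Nfe2l2 at -0.56 ± 0.11. No gene of lymphatic endothelium passed among 6 tested.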
